A study of Mus musculus with 6 samples.

Results

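The transcriptome of cells sorted as bulge stem cells (bulge SCs) was described from 3 control libraries, out of 6 libraries in the series. The 3 were chosen by their label as controls, and no comparison with ILK-K5 libraries was made. Control mice are labelled ILK +/- and carried, per the study's methods, 1 floxed Ilk allele together with Cre driven by the K5 promoter (ILK fl/+ K5-Cre), which is active in basal keratinocytes including those of the hair follicle (HF). They are thus not wild type: 1 Ilk allele was open to deletion in the sorted cells, and Cre was present. The mice were littermates of the mutants on a C57Bl6-129/Sv background, and were taken at postnatal day 21, when HFs are at rest. Cells were obtained from trypsin-separated epidermis by flow cytometry as CD34+ cells with high α6 integrin. RNA of these cells was amplified as cDNA before sequencing. The labels do not tell whether the libraries come from separate mice or pools, so the spread between them may be technical in part.

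The bulge is the part of the resting HF below the sebaceous gland that houses slowly dividing epithelial stem cells. These cells hold on to a basement membrane through α6β4 integrin, carry CD34 on their surface in the mouse, and are known to be held in quiescence by Bmp signals and by inhibitors of Wnt. When the next growth phase begins, Wnt signals and loss of Bmp signals activate first the hair germ below the bulge and then the bulge itself. In the sort used here, CD34 separates bulge cells from the remaining basal keratinocytes, which have α6 integrin but little CD34.

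Depth on genes was 10486936 reads in library 1, 8228019 in library 2 and 11969072 in library 3. Mitochondrially encoded genes took 23.6%, 27.6% and 11.5% of these reads, and nuclear protein-coding genes 59.1%, 51.5% and 69.4%. The mitochondrial share leaves out nuclear copies of mitochondrial genes, whose reads could not be kept apart from the originals. Some reads may be counted on both, so the depth and these shares are approximate. The column names of libraries 2 and 3 share an ending that library 1 lacks, and its meaning is not given in the sources used here. Library 1 stood apart in the levels: across 16353 genes (those averaging 10 or more normalized counts), the Pearson correlation of log2(FPKM + 0.1) was 0.86 between libraries 1 and 2, 0.81 between 1 and 3, and 0.91 between 2 and 3. These correlations are across genes, which are not independent replicates, and are given as a description. Library 2 differed in sex-linked genes. Xist, the RNA that silences an X chromosome in female cells, was at an FPKM of 318, 0.0435 and 177, while the Y-linked Ddx3y was at 0, 17.3 and 0.0429 and Eif2s3y at 0, 17.5 and 0. Library 2 thus had the Y-linked RNAs without Xist, and the labels give no sex. By these values the 3 libraries did not all come from the same animals. What part of the spread between libraries goes with sex or animal was not tested. Of the 4 Y-linked genes listed, Uty (0.384, 5.18 and 0.517) and Kdm5d (1.18, 3.27 and 0.378) were also highest in library 2.

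A gene is taken as detected here when its FPKM (fragments per kilobase of transcript, scaled by a size factor per library, and so a level per length) was at least 1 in each of the 3 libraries. It is said to be at the floor when it had at most 3 reads in each library, and in between otherwise. By construction, a count of detected genes with a library left out cannot be lower than with all 3. Of 43274 genes, 11191 (25.9%) were detected and 19105 (44.1%) were at the floor. Of 21551 protein-coding genes, 8771 (40.7%) were detected and 4979 (23.1%) were at the floor, and these shares are the background for each gene family below. A gene at the floor may still be transcribed at a level that this depth could not show. As these are bulk samples, fewer cells of a type and less RNA per cell cannot be told apart.

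All 6 sort and identity markers of the bulge were detected. Krt15, the keratin used as a bulge marker (chr11:100131758-100135928, minus strand, GRCm38), was at an FPKM of 1683, 2772 and 5653 in libraries 1 to 3. Its mean of 3369 ± 2051 (SD, n = 3) gave it rank 4 among nuclear protein-coding genes, and its level in library 3 was 3.36-fold that in library 1. The 2 genes whose proteins were stained for the sort were lower than Krt15 and spanned a smaller fold between the libraries (Cd34 2.12-fold, Itga6 1.25-fold). Itga6, α6 integrin (chr2:71745616-71858416, plus strand), was at 23.8, 22.2 and 27.7, and Cd34 (chr1:194938819-194961279, plus strand), a sialomucin of stem and endothelial cells, at 28.3, 13.3 and 27.6. Cd34 was lowest in library 2, whereas Itga6 varied little between the libraries.

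Of the transcription factors of the bulge, Sox9 (chr11:112782224-112787760, plus strand), needed to set aside HF stem cells, was at 44.8, 44.5 and 66.7. Lhx2 (chr2:38339281-38369733, plus strand), a LIM-homeobox factor that maintains the bulge, was at 71.2, 34.4 and 32.6. Lgr5 (chr10:115450311-115587780, minus strand), the R-spondin receptor that marks the lower bulge and hair germ, was at 55.2, 30.9 and 19.3. Lhx2 and Lgr5 were both highest in library 1, whereas Krt15 and Sox9 were highest in library 3. By mean FPKM the order was Krt15, Sox9 (52.0 ± 12.7), Lhx2 (46.1 ± 21.8), Lgr5 (35.1 ± 18.3), Itga6 (24.6 ± 2.83) and Cd34 (23 ± 8.43; SD, n = 3 for each). The ranges of Krt15 and Sox9 did not overlap. The ranges of Sox9 and Lhx2 overlapped, as did those of Lhx2 and Lgr5, of Lgr5 and Itga6, and of Itga6 and Cd34, so the order within these pairs is not resolved by 3 libraries.

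**Figure D1:**
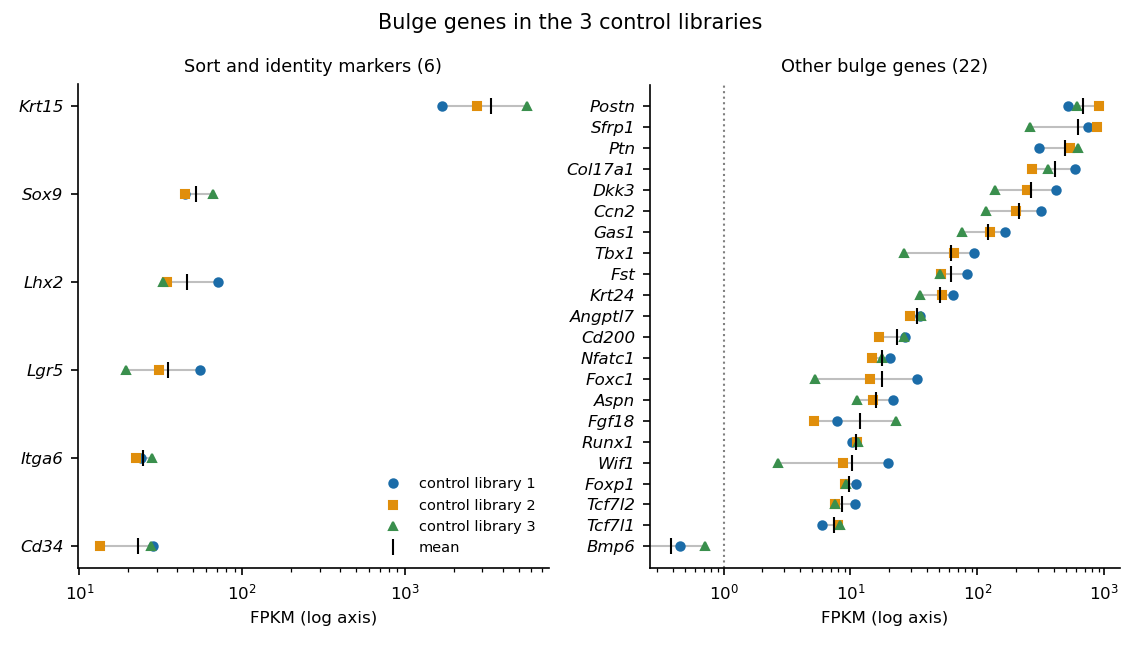
FPKM (log axis) of the 6 sort and identity markers of the bulge and of 22 other bulge genes in the 3 control libraries. Points are single libraries, black ticks are means and grey lines the range. The dotted line is the detection limit of FPKM 1, and Bmp6, whose value of 0 in library 2 cannot be drawn on a log axis, is the only gene below it.

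Of 22 other genes known from the bulge, 21 were detected (background 40.7%), and Bmp6 was not (0.452, 0 and 0.710). The most abundant encode secreted or surface proteins. Postn, the matricellular protein periostin, was at 522, 904 and 605, and Sfrp1, a secreted Wnt inhibitor, at 745, 870 and 259. Ptn, the heparin-binding growth factor pleiotrophin, was at 304, 540 and 621. Col17a1, the hemidesmosomal collagen linked to stem cell upkeep, was at 587, 271 and 360. All 4 exceeded every sort and identity marker except Krt15 in each library, but only Ptn was lowest in library 1 and highest in library 3. Among the transcription factors on the list, Nfatc1, Tbx1, Foxc1, Runx1, Foxp1, Tcf7l1 and Tcf7l2 were all detected. Tbx1, a T-box factor, was at 94.4, 65.5 and 26.3, and Foxc1, a forkhead factor, at 33.3, 14.3 and 5.23. Relative to the median of all detected nuclear protein-coding genes in each library, 15 of the 21 detected genes were highest in library 1, 2 in library 2 and 4 in library 3. On the same scale 3230 of all 8758 such genes were highest in library 1, 2479 in library 2 and 3049 in library 3.

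The highest FPKM values belonged to few and mostly non-coding genes. The 100 most abundant genes held 72.9%, 84.3% and 73.2% of the FPKM sum in libraries 1 to 3. Of the 30 genes with a symbol and the highest mean FPKM, 15 were mitochondrially encoded, 7 were annotated as pseudogenes, 5 as miRNA genes and 1 as a nuclear protein-coding gene, Lars2. The other two were Gm42418 and Rn7sk, the 7SK RNA that holds back transcription elongation. The mitochondrial genes included mt-Nd1, a subunit of respiratory complex I, at an FPKM of 21549, 32951 and 9326, and mt-Cytb, cytochrome b, at 13429, 19392 and 6351. Both were highest in library 2 and lowest in library 3, as was the summed FPKM of the 13 mitochondrial protein genes (246538, 373194 and 105044). All 13 were detected, as were 18 of 22 mitochondrial rRNA and tRNA genes. As a share of each library's FPKM sum, however, mitochondrially encoded genes were highest in library 1 (37.0%, 32.2% and 17.0%). The pseudogenes are nuclear copies of mitochondrial genes in part, and their reads could not be kept apart from the originals. The reads of Gm28661 came to 99.3%, 99.4% and 99.5% of those of mt-Co2, taking the smaller of each pair over the larger, and the reads of Gm28437 differed from those of mt-Co3 to a like small degree. The 5 genes of the miRNA type, headed by Gm23935 (23505, 144261 and 102729), are very short. Genes of this type took 9.81%, 27.9% and 32.0% of the FPKM sum but 0.430%, 1.84% and 1.64% of the reads.

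For this reason the nuclear protein-coding genes were also ranked by themselves, a choice made after the values were seen. Among these the 100 most abundant held 30.8%, 35.3% and 35.3% of their FPKM. Lars2, the mitochondrial leucyl-tRNA synthetase, came at the top at 1999, 6804 and 8664, followed by Gm20594 and Gm10800, both predicted genes of no named function. Lars2 together with Gm42418 took 0.990%, 2.91% and 7.4% of all reads, so their weight differed strongly between the libraries. Gm42418 shares 99.5% of its exon bases with another gene. Whether the reads counted on Lars2 come from its mRNA was not tested. Krt15 came next, then Perp, a desmosomal protein of stratified epithelia that is a p63 target, at 1738, 2522 and 1660. Krt5, the basal keratin whose promoter drives Cre in these mice, was at 1184, 1404 and 3035. Sfn, the epithelial 14-3-3σ protein, was at 2435, 1556 and 503. Perp differed least between the libraries, whereas Krt5 was highest in library 3 and Sfn was lowest there. Of the 40 most abundant nuclear protein-coding genes, 14 encoded cytosolic ribosomal proteins, headed by Rpl4 (1256, 2205 and 881) and Rps12 (821, 1585 and 1251; 13.7% of its exon bases are shared with another gene, including the small nucleolar RNA gene Snora33). Others in this group were Tpt1 and Eef1a1, both of translation, S100a11, Cd24a, Apoe, Fth1, the ferritin heavy chain, and B2m, the light chain of MHC class I. Cat, the peroxide-degrading enzyme catalase, was at 1287, 604 and 106, which is 12.1-fold between libraries 1 and 3. S100a4 (593, 1399 and 1182) shares 51.7% of its exon bases with another gene, and its level is therefore uncertain.

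**Figure D2:**
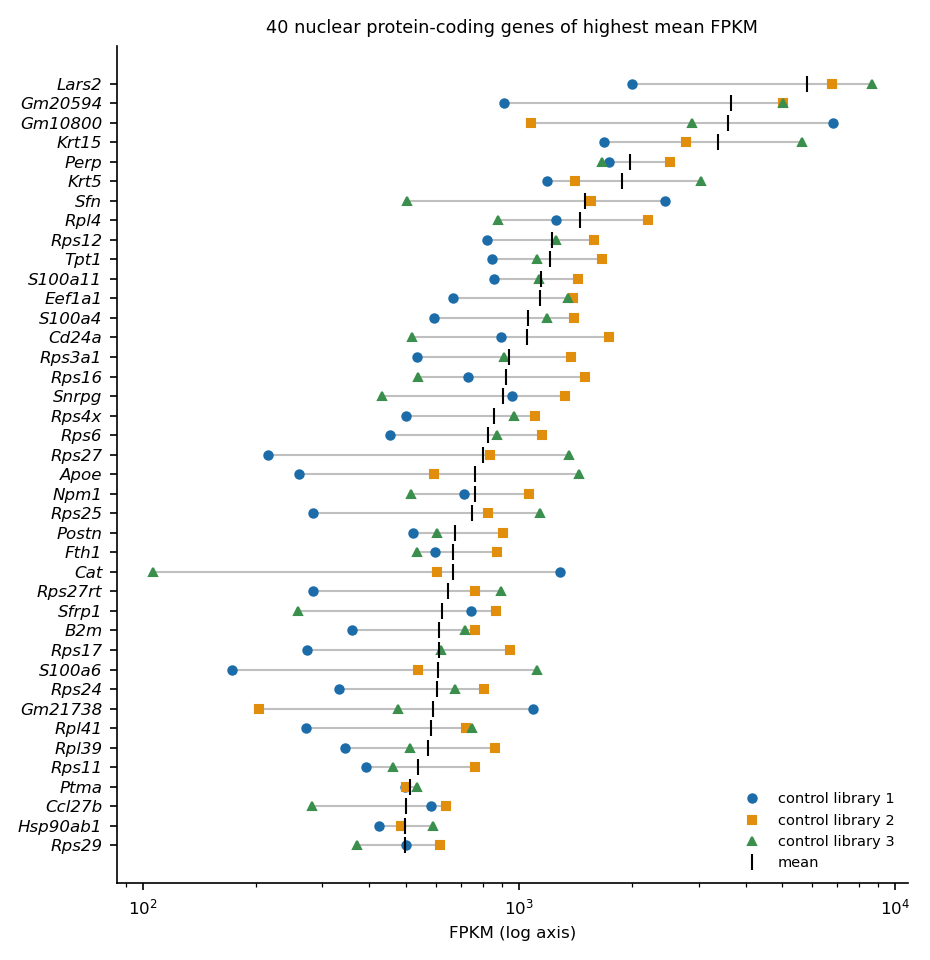
FPKM (log axis) of the 40 nuclear protein-coding genes of highest mean FPKM in the control libraries. Points are single libraries, black ticks are means and grey lines the range. Krt15, Perp and Krt5 stand among genes of translation, and Cat spans the widest range, from 106 in library 3 to 1287 in library 1.

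No keratin of the hair shaft was detected, whereas some keratins of each other layer listed were. Of 27 type I keratins 9 were detected (33.3%) and 6 were at the floor. Of 25 type II keratins 8 were detected (32%) and 5 were at the floor. Both shares of detected genes were below the 40.7% of all protein-coding genes. All 10 basal keratinocyte genes were detected, among them Krt14, the partner of Krt5, at 193, 269 and 517, and Trp63, the master regulator of stratified epithelia, at 119, 156 and 127. Krt17, a keratin of HF outer root sheath, was at 32.5, 59.4 and 84.9. Krt24, a bulge keratin, ran the other way between the libraries, at 64.0, 52.6 and 35.4. None of 12 hair shaft keratins was detected (1 without library 1), and 10 of them were at the floor. Krt33b, Krt34, Krt36 and Krt86 were listed at 0 in all 3 libraries, and the highest of this group, Krt32, was at 0.230, 1.45 and 1.82. Of 56 keratin-associated proteins, which cross-link keratins in the hair shaft, 1 was detected (Krtap17-1 at 2.73, 9.22 and 10.4) and 42 were at the floor. Genes of the inner root sheath and companion layer were present in part, 5 of 12 detected. Krt25 was at 8.16, 20.1 and 13.6 and Krt27 at 1.02, 1.91 and 1.49, while Krt71, Krt72 and Krt74 were listed at 0 in at least 1 library.

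Keratins of the differentiating epidermis were present at levels well above the detection limit. Of 12 genes of this layer, 8 were detected. Krt10, the suprabasal type I keratin, was at 37.5, 77.5 and 185, and its partner Krt1 at 7.49, 68.2 and 211. Krtdap, a keratinocyte differentiation protein, was at 187, 591 and 637. These 3 genes were lowest in library 1 and highest in library 3, but Calml3, a calmodulin-like protein of keratinocytes and the second most abundant of the list, ran the other way, at 513, 326 and 231. Lor, loricrin of the cornified layer, was at 8.18, 7.10 and 7.24, and the late genes Flg (0.109, 0.310 and 0.0658) and Lce1a1 (0.421, 0 and 0.844) were below the limit in each library. Relative to the median of all genes, 6 of the 8 detected genes were highest in library 3 and 2 in library 1. Of all 8758 detected nuclear protein-coding genes, 3049 were highest in library 3 and 3230 in library 1. Over the 8, the median log2 level, relative to each gene's 3-library mean and to the median of all detected nuclear protein-coding genes, was -1.09, 0.04 and 0.97 in libraries 1 to 3. This was the widest range of any list with at least 3 detected members. Whether differentiated cells in the sorted gate contribute to this was not tested.

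The promoters of the keratins are shown because they are a sequence feature on which this gene family differs from the rest. RefSeq promoter windows (GRCm38.p6, 250 bases before to 50 bases after the gene start) matched 16312 nuclear protein-coding genes, 36 of them keratins. The letters TATAAA, on either strand and between 40 and 16 bases before the start, were in 13 of the 36 keratin windows (36.1%), and in 3.25% of all windows, 1.23% of those of detected genes and 6.84% of those of genes at the floor. A match is a description of the letters and not a site. Stretches from 90 bases before to 10 bases after the start are given for Krt5 (chr15:101712896-101712995, minus strand), Krt14 (chr11:100206021-100206120, minus strand), Krt10 (chr11:99389355-99389454, minus strand) and Krt25 (chr11:99322942-99323041, minus strand). They were picked, after the values were seen, as the 2 most abundant keratins with a window and the 2 detected keratins that hold the letters. Capitals mark TATAAA in Krt10 and Krt25, and in Krt14 the letters GAAAG described next. The Krt14 window lies inside that gene as annotated (chr11:100203162-100207548). It therefore does not show the sequence at the annotated gene start, and window starts can differ from annotated starts.
Krt5: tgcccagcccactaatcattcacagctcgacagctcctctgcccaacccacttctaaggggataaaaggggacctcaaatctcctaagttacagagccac
Krt14: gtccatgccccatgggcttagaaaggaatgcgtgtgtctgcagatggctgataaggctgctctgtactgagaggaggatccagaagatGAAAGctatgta
Krt10: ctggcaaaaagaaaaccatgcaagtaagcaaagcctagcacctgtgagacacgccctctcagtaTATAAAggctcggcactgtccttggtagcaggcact
Krt25: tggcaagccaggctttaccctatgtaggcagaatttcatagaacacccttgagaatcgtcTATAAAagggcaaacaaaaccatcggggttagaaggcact

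Detected genes and genes at the floor also differed in the base composition of these windows. The median number of CG pairs in the 300 bases was 22 in detected genes, 10 in genes in between, 3 in genes at the floor, and 1 in 868 olfactory receptors. In keratins it was 5, although the basal keratins are among the most abundant genes of these cells. Ribosomal protein mRNAs are known to begin with a run of pyrimidines. CTTTC or CTTTT, on either strand (GAAAG or AAAAG on the other) and within 10 bases either side of the start, was in 15 of 63 ribosomal protein windows (23.8%) and in 7.04% of all windows. Rps6 (chr4:86857358-86857457, minus strand), at an FPKM of 454, 1149 and 873, holds one, shown in capitals.
Rps6: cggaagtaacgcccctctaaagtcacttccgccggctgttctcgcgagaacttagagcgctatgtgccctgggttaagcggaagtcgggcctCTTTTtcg

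Markers of cell types other than keratinocytes were low, with some exceptions in which the libraries differed. Of 8 endothelial genes, relevant because endothelium also carries CD34, none was detected, and their summed FPKM was 3.98, 2.47 and 1.99. None of 8 pan-leukocyte genes was detected (summed FPKM 2.40, 6.65 and 7.66), and Ptprc, CD45, was at 0.157, 0.128 and 0.284. Without library 1, however, 2 of the 8 passed. Of 7 mast cell genes 6 were at the floor, including Kit and Cpa3. None of the genes of Merkel cells, of smooth muscle and pericytes, or of red blood cells was detected, although 1 Merkel cell gene passed without library 1 and 1 smooth muscle gene without library 2. Of 10 macrophage genes only Cd68, a lysosomal protein, was detected (2.68, 2.48 and 2.90), and without library 1 the count was 2.

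The Langerhans and dendritic cell genes differed by library. H2-Ab1, a chain of MHC class II, was at 0.0604, 21.8 and 16.3, and Cd74, the invariant chain, at 0.0702, 3.10 and 24.0. Cd207, langerin, which defines Langerhans cells, was at 0.517, 2.85 and 4.57. The summed FPKM of the 8 genes was 2.10, 31.5 and 54.3, lowest in library 1. Not all members had this order: Flt3, a dendritic cell cytokine receptor, was at 0.421, 0.221 and 0.163, and Zbtb46, a dendritic cell factor, at 0.372, 0.0183 and 0.0787. No gene of the list was detected, but 4 were without library 1. T cell genes were detected in 3 of 8, with Trbc2, the T cell receptor β constant region, at 6.58, 33.1 and 28.8, and Cd3d at 9.12, 7.54 and 2.92. The α constant region Trac, in contrast, was at the floor. Epidermis of mice holds resident γδ T cells, whose δ constant region gene has no row in the tables.

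Mesenchymal and neural crest markers were mostly low. Of 9 fibroblast genes 3 were detected, with Col1a1 at 5.83, 6.79 and 7.44 and Dcn, decorin, at 1.61, 6.14 and 1.29. Lum was listed at 0 in all 3 libraries, and Pdgfra was at 0.191, 0.0231 and 0.0884. Of 12 dermal papilla genes 2 were detected, Crabp1 (2.22, 4.28 and 7.89) and Prdm1 (2.52, 3.12 and 4.35), and Sox2 was listed at 0. Of 8 melanocyte genes 3 were detected. Mitf, the melanocyte master regulator, was at 18.7, 14.3 and 9.83, whereas its pigment cell targets were lower (Pmel 5.76, 1.83 and 1.43) or near 0 (Tyrp1 0.105, 0 and 0.184), and Sox10 was at the floor. Of 6 Schwann cell genes only Ngfr, the p75 neurotrophin receptor, was detected (10.05, 10.5 and 6.72), and without library 2 the count was 2. Sebaceous gland genes were detected in 3 of 10, among them Scd1, a fatty acid desaturase (6.98, 10.4 and 13.8), while Mc5r and Elovl3 were listed at 0. Isthmus and infundibulum genes were detected in 5 of 7, with Lgr6 at 51.5, 40.1 and 34.3, Krt79 at 3.77, 5.65 and 25.7 and Plet1 at 11.2, 10.8 and 14.9. Ly6a, the Sca-1 surface protein of the upper follicle, was at 0.328, 18.1 and 20.4.

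**Figure D3:**
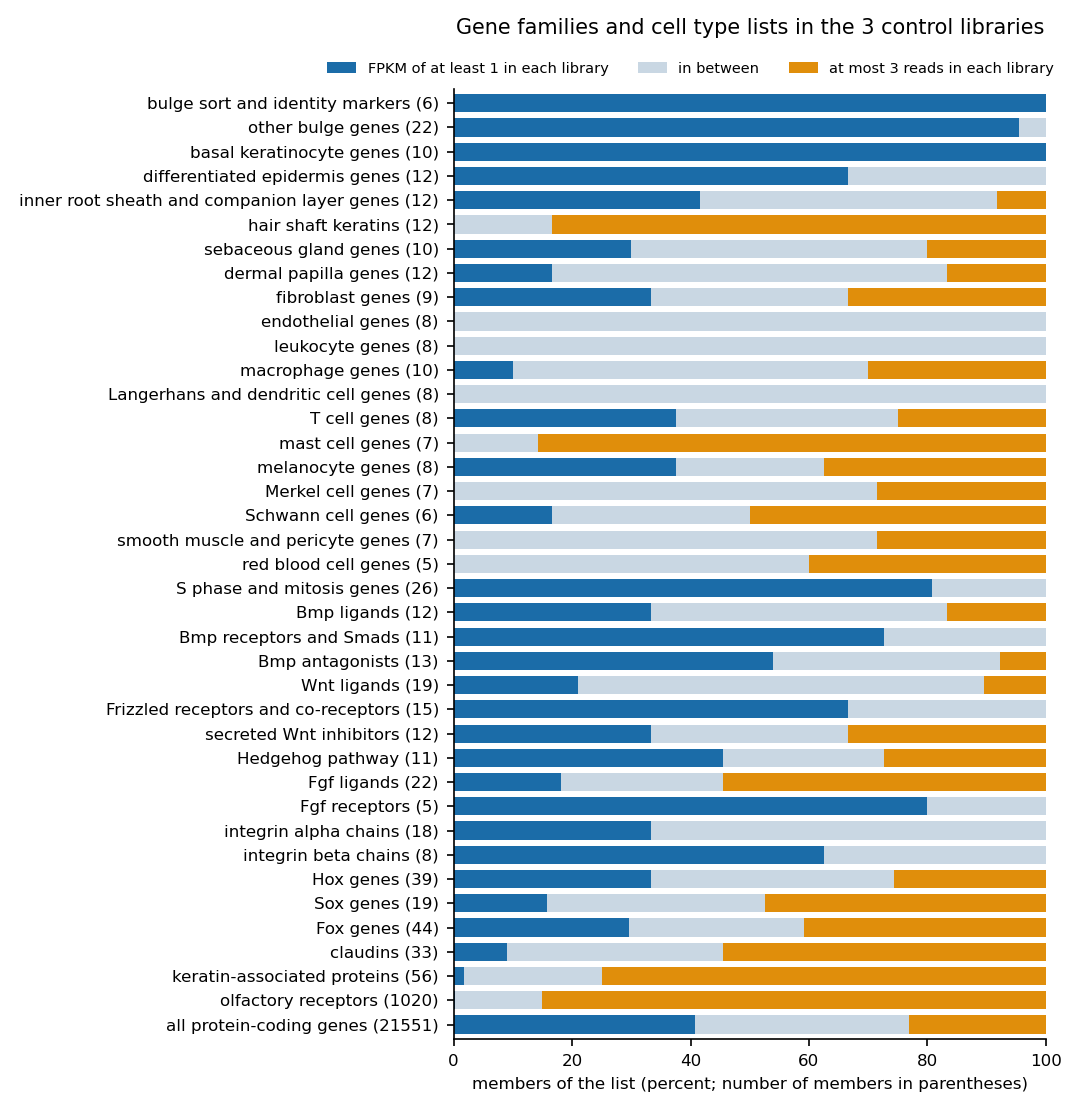
Share of the members of each gene list, in percent, that were detected in each control library at FPKM 1 or more (blue), that had at most 3 reads in each (orange), or that were in between (grey), with the number of members in parentheses. Bulge and basal lists are nearly all blue, the hair shaft, mast cell and olfactory lists nearly all orange, and all 21551 protein-coding genes are given at the bottom as background.

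Genes of the cell cycle were present and differed by library. Of 26 genes of S phase and mitosis 21 were detected (80.8%, background 40.7%). In library 1 all 26 reached FPKM 1, against 22 in library 2 and 21 in library 3. Whether the sorted cells were all at rest was not tested. Mki67, the proliferation antigen, was at 35.7, 13.2 and 14, Top2a, topoisomerase IIα, at 37.0, 20.1 and 8.27, and Ccnb2, a mitotic cyclin, at 15.0, 7.59 and 1.69. Relative to the median of all genes as above, 18 of the 21 were highest in library 1, against 3230 of all 8758 detected nuclear protein-coding genes. The median relative log2 level of the 21 was 0.64, -0.08 and -0.43. Pcna, the sliding clamp of replication, was the exception among the abundant members, at 80.3, 120 and 62.2. Of 5 genes of D-type cyclins and their kinases 4 were detected, with Ccnd2 at 32.2, 37.4 and 42.5 and Ccnd1 at 47.6, 31.5 and 31.6. Of 7 inhibitors of cyclin-dependent kinases 3 were detected. Cdkn1a, p21, was at 10.2, 19.6 and 47.8, thus in the opposite order to the mitotic genes, and Cdkn1b, p27, at 12.1, 6.61 and 14.4. Cdkn2a, of p16 and p19ARF, was listed at 0 in all 3 libraries.

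In the Bmp pathway, single receptors, antagonists and targets reached higher levels than the ligands. Of 12 genes on the ligand list 4 were detected. One of them, Bmp1 (1.74, 2.99 and 3.72), encodes a procollagen-cleaving protease and not a ligand, and the others were Gdf10 (10.1, 12.3 and 11.3), Bmp7 (10.5, 12.8 and 6.31) and Bmp2 (5.90, 8.68 and 7.01). Bmp4, made mainly by the dermis, was at 0.934, 1.68 and 7.39. Of 11 receptors and Smads 8 were detected, with the type I receptor Bmpr1a at 76.9, 106 and 61.9, and the type II receptor Bmpr2 at 42.8, 50.3 and 32.5. Both receptors stood above every ligand on the FPKM scale in each library. Bmpr1b, a further type I receptor, was near 0 (0.0332, 0.0523 and 0.0998).

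The 4 Id genes, direct targets of Bmp signals, were all detected and were all highest in library 1. Id2 was at 216, 120 and 78.9, Id3 at 154, 64.6 and 52.6, Id4 at 70.6, 43.3 and 34.8, and Id1 at 38.6, 15.1 and 16.6. Of 13 secreted or surface antagonists 7 were detected. Sostdc1, which blocks both Bmp and Wnt signals, was at 361, 449 and 212, and Grem1, gremlin, at 454, 168 and 107. Fst, follistatin, was at 82.5, 51.7 and 50.6. Nog, noggin, a dermal antagonist, was not detected (0.759, 0.828 and 0.263), and Sost was at the floor.

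In the Wnt pathway most receptors were detected, and only a few ligands and inhibitors were, some of the latter at high levels. Of 19 ligands 4 were detected, Wnt4 (3.82, 4.57 and 9.70), Wnt10a (4.73, 5.50 and 3.20), Wnt7b (4.73, 3.67 and 2.44) and Wnt5b (2.31, 2.0 and 1.91), and Wnt8a and Wnt9b were at the floor. Of 15 Frizzled receptors and co-receptors 10 were detected, with Fzd1 at 55.3, 55.1 and 31.7, Fzd7 at 38.8, 33.1 and 43.1 and Lrp6 at 16.1, 18.0 and 21.4. Of 12 secreted inhibitors 4 were detected (background 40.7%). Beside Sfrp1, Dkk3 was at 415, 246 and 138, Wif1 at 19.8, 8.67 and 2.67 and Dkk1 at 8.72, 6.30 and 3.10. Sfrp4, Sfrp5, Notum and Dkk4 were at the floor.

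The 4 nuclear factors of Wnt signalling were all detected, and Tcf7l1 (6.0, 7.95 and 8.21), Tcf7l2 (10.8, 7.53 and 7.59) and Tcf7 (10.5, 5.46 and 3.88) were above Lef1 (2.63, 1.6 and 2.70), the factor of the hair germ and matrix, in each library. Of 9 Wnt targets and feedback genes 8 were detected. Axin2, a feedback inhibitor, was at 3.34, 2.55 and 4.28, and Sp5, another target, was listed at 0 in all 3 libraries. Of 9 hair germ and matrix genes 6 were detected, headed by Cdh3, P-cadherin, at 9.59, 10.1 and 19.5 and Hoxc13 at 15.5, 8.68 and 11.5.

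In the Hedgehog pathway 5 of 11 genes were detected, none of them a ligand. Shh was listed at 0 in all 3 libraries, Ihh and Dhh were at the floor, and Smo, the signal transducer, was at 55.3, 66.3 and 47.3. Ptch1, the receptor and itself a target, was at 48.3, 18.2 and 8.36, and the target factor Gli1 at 2.65, 2.08 and 2.01. Ptch1 was thus highest in library 1, whereas Smo and Gli1 were within 1.5-fold over the libraries. Of 22 Fgf ligands 4 were detected and 12 were at the floor. Fgf1 was at 54.4, 31.2 and 35.2, Fgf18, a quiescence signal of the bulge, at 7.83, 5.12 and 22.7, and Fgf5, which ends hair growth, at 8.54, 6.05 and 2.80. Of 5 Fgf receptor genes 4 were detected, and Fgfr2, the main one in epithelium, was at 40.7, 49.1 and 42.2. Of 14 Notch pathway genes 6 were detected, headed by the ligand Jag1 (21.4, 10.9 and 10.2), with Notch1 at 2.13, 2.57 and 3.85. Of 13 genes of the Tgf-β ligands, receptors and binding proteins 11 were detected, with Tgfb2 at 5.6, 5.22 and 3.31, Tgfbr1 at 4.03, 5.82 and 5.25 and Ltbp1, which stores the ligand in the matrix, at 20.2, 7.10 and 5.16.

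Of 18 integrin α chains 6 were detected, with Itga6 the highest, Itga3 at 8.32, 11.2 and 13.6 and Itga2 at 8.62, 9.36 and 13. Of 8 β chains 5 were detected, with Itgb1 at 51.6, 64.9 and 52.3, Itgb4, the partner of α6 in hemidesmosomes, at 38.6, 20.7 and 29.8, and Itgb6 at 28.6, 28.7 and 11.3. The leukocyte chains Itgb2 (0.421, 0.102 and 0) and Itgb7 (0, 0.0568 and 0.434) were below the limit. Of 11 laminin chains 7 were detected. Lama3, the α3 chain of epithelial basement membranes, was at 43.5, 43.8 and 31.9, and Lamb3, a β chain that pairs with it, at 30.1, 18.8 and 21.4. The chains of laminin-511 were lower, with Lama5 at 4.14, 1.48 and 3.34, Lamb1 at 3.35, 2.44 and 1.6 and Lamc1 at 7.01, 4.07 and 7.29. In each library both Lama3 and Lamb3 exceeded every chain of laminin-511. Of 44 collagen chains 20 were detected, with Col17a1 far above Col12a1 (18.3, 11.0 and 12.2) and Col4a2 (17.7, 12.6 and 9.31).

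Ilk, the gene with 1 floxed allele, was at an FPKM of 0.397, 0.625 and 1.44, from 11, 11 and 53 reads. As 89.7% of its exon bases are shared with another annotated gene, Taf10 among them, and the handling of such reads is not given in the sources used here, this value is not a measure of how much Ilk the controls retained. Among partners of Ilk, Fermt1, kindlin-1, was at 22, 41.8 and 50.8, Lims1, PINCH-1, at 10.5, 14.5 and 11.0 and Parva, α-parvin, at 3.82, 5.53 and 4.60. The haematopoietic Fermt3 was at 0.421, 0.0603 and 0.0863, and Parvb was at the floor. Of 12 genes of the Ilk group 6 were detected (50%), near the 40.7% of all protein-coding genes. Cell-cell adhesion was represented by 10 of 12 desmosomal genes. Besides Perp, Dsp, desmoplakin, was at 277, 247 and 336, and Dsg3 at 94.5, 98.7 and 99. Of 33 claudins only Cldn1 (57.3, 74.5 and 61.5), Cldn12 (13.6, 8.79 and 5.28) and Cldn8 (4.45, 2.25 and 1.86) were detected, and 18 were at the floor.

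Families of transcription factors were examined next. Of 39 Hox genes, which hold positional identity, 13 were detected (33.3%) and 10 were at the floor (25.6%), near the shares of all protein-coding genes. By paralogue group, 11 of 19 genes in groups 4 to 9 were detected and none of them was at the floor, against 1 of 8 in groups 1 to 3 and 1 of 12 in groups 10 to 13, of which 7 were at the floor. The gene of the last set that was detected was Hoxc13, a hair factor. Hoxc8 was the most abundant, at 29.1, 27.2 and 29.0. Of 19 Sox genes 3 were detected, Sox9, Sox21 (2.94, 3.0 and 5.27) and Sox4 (1.51, 1.07 and 1.09), with 9 at the floor. Without library 1 the count was 6. Of 6 Gata factors only Gata3 was detected, at 12, 15.6 and 24.1. Of 44 Fox genes 13 were detected, with Foxc1 the highest by mean, followed by Foxn3 (6.47, 10.5 and 26).

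Families of other tissues were near absent. Of 1020 olfactory receptor genes 2 were detected and 867 were at the floor, of 293 vomeronasal receptor genes 1 was detected and 196 were at the floor, and of 38 taste receptor genes none was detected. Without library 3 the counts were 5, 2 and 1. Olfr613 was nonetheless detected at 21.2, 13.5 and 13.3, and Vmn1r58 at 8.11, 5.93 and 5.10, steady in each case. Most other olfactory values came from library 1, where the summed FPKM was 162 against 56.2 and 56.1. The same order held for vomeronasal (101, 22.9 and 15.7) and taste receptors (14.5, 3.54 and 2.02). Library 1 also had the most genes of any kind that reached FPKM 1 in it alone, 2009 against 908 in library 2 and 1289 in library 3.

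Immediate early genes, which are induced within minutes by stress and by enzymatic dissociation of tissue, were high. Of 22 such genes 20 were detected. Fos was at 400, 49.6 and 98.6, Jun at 287, 45.1 and 88.8, Egr1 at 295, 46.8 and 95.1, and Junb at 110, 5.85 and 19.8. All 4 were highest in library 1 and lowest in library 2, and over the 20 detected genes the median relative log2 level was 0.90, -0.99 and 0.14. Of the 20, 12 were highest in library 1 and 8 in library 3, against 3230 and 3049 of all 8758 detected nuclear protein-coding genes. Among the 8 was Zfp36, which degrades such mRNAs (123, 70.0 and 270). The 11 inducible heat shock genes were all detected and did not follow this order: Hspa8 was at 230, 306 and 372 and Hsp90aa1 at 119, 116 and 125. What part the isolation played in these levels was not tested.

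The spread between the 3 libraries exceeded counting error for nearly all genes. Over the same 16353 genes, the median CV (SD over mean, n = 3) was 0.407, with quartiles of 0.249 and 0.628, whereas counting error alone gives a median of 0.101. Only 780 genes (4.77%) had a CV at or below that of counting error. The median CV was 0.652 for genes with a mean of 10 to 30 normalized counts and 0.261 for genes of 1000 to 3000, and it was 0.384 for the 333 genes at 3000 or more, where counting error gives 0.0142. Thus the most abundant genes varied more between the libraries than genes just below them.

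**Figure D4:**
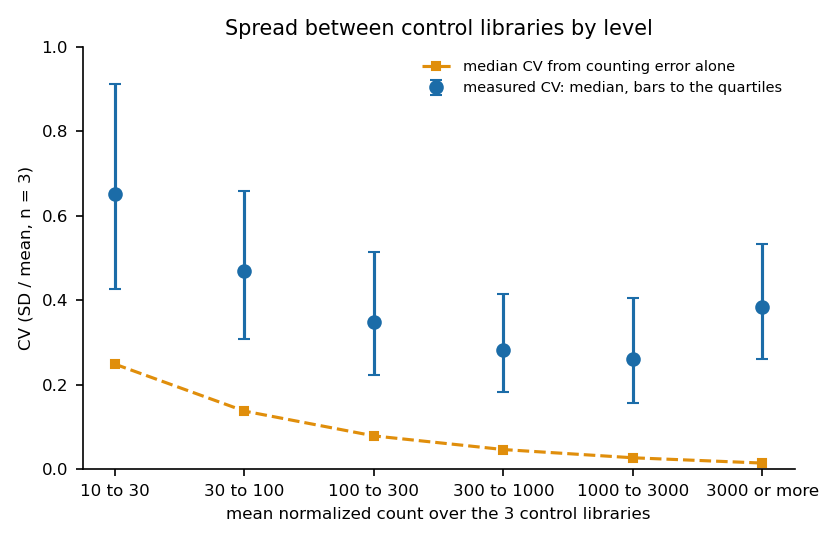
CV of normalized counts over the 3 control libraries (SD divided by mean) against the mean normalized count in 6 classes. Circles are the median over genes, bars reach to the quartiles, and squares with a dashed line are the median CV that counting error alone gives. The measured CV falls from 0.652 to 0.261 and is 0.384 in the highest class, above counting error in every class.

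Of 8758 detected nuclear protein-coding genes, 2581 (29.5%) lay within 1.5-fold over the 3 libraries and 5304 (60.6%) within 2-fold, while 579 (6.61%) differed by over 4-fold. Of those 579 genes, 335, 92 and 152 were lowest in libraries 1, 2 and 3, and 195, 68 and 316 were highest there. Over all 8758 genes, 39.3%, 26.1% and 34.6% were lowest in libraries 1, 2 and 3, and 33.8%, 31.3% and 34.9% were highest. The 10 genes of smallest CV with a mean FPKM of at least 10 were all protein-coding. Among them were Ablim3, Sbno1, Tpm3-rs7, Tor1aip2, Nfat5, Fam120a, Ryk, Igfbp4 and Ptpn11. Ablim3, an actin-binding LIM protein, was at 10.7 in each library, and Igfbp4, which binds insulin-like growth factors, at 57.4, 57.9 and 55.3. Values as close as those of Ablim3, from 494, 314 and 657 reads, are closer than counting error and carry no further meaning.

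The 10 genes of largest CV were none of them protein-coding. They were small nuclear and nucleolar RNAs, miRNA genes and pseudogenes with reads in mostly 1 library, such as Gm22814 with 32, 0 and 0 reads. Among nuclear protein-coding genes, examined after the values were seen, the most variable included Ifitm2, an interferon-induced membrane protein (5.52, 19.4 and 148), Asprv1, a protease of the stratum corneum (0.906, 8.77 and 47.3), and Cck, the peptide hormone cholecystokinin (37.3, 0.911 and 7.28). Oxtr, the oxytocin receptor, was at 127, 37.4 and 5.03, and Sdc4, the heparan sulfate carrier syndecan-4, at 33.1, 53.3 and 274. Ifitm2, Asprv1 and Sdc4 were highest in library 3, whereas Cck and Oxtr were highest in library 1. Ifitm2 shares 40.9% of its exon bases with another gene, and its level is therefore uncertain.

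The gene lists differed in which library was highest. To compare them, the log2 level of each detected gene was taken relative to its mean over the 3 libraries and to the median of all detected nuclear protein-coding genes, so that the scaling of a library cancels. The 76 detected of 83 ribosomal protein genes were at a median of -0.60, 0.32 and 0.27. Of these 76, 36 were highest in library 2 and 36 in library 3, against 4 in library 1. Among all 8758 detected nuclear protein-coding genes, 2479 were highest in library 2, 3049 in library 3 and 3230 in library 1. The 35 detected of 64 replication-dependent histone genes were at -0.86, 0.04 and 0.78, opposite to the order of the S phase and mitosis genes. The 10 detected of 17 S100 genes were at -0.75, 0.26 and 0.26, and the 8 type II keratins at -0.62, -0.38 and 1.17. Other bulge genes (0.42, 0.00 and -0.17) and secreted Wnt inhibitors (0.76, 0.14 and -0.97) had the opposite order. The basal keratinocyte genes (-0.10, -0.12 and 0.01), Hox genes (0.07, -0.07 and -0.01) and Bmp receptors and Smads (0.05, -0.11 and -0.09) had medians near 0 in all 3 libraries, although single members went either way, such as Krt5 (2.56-fold, highest in library 3) and Dst (2.97-fold, highest in library 1). These are medians over genes of the same 3 libraries, and no test was made, since with 1 library in each place there is no replicate.

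**Figure D5:**
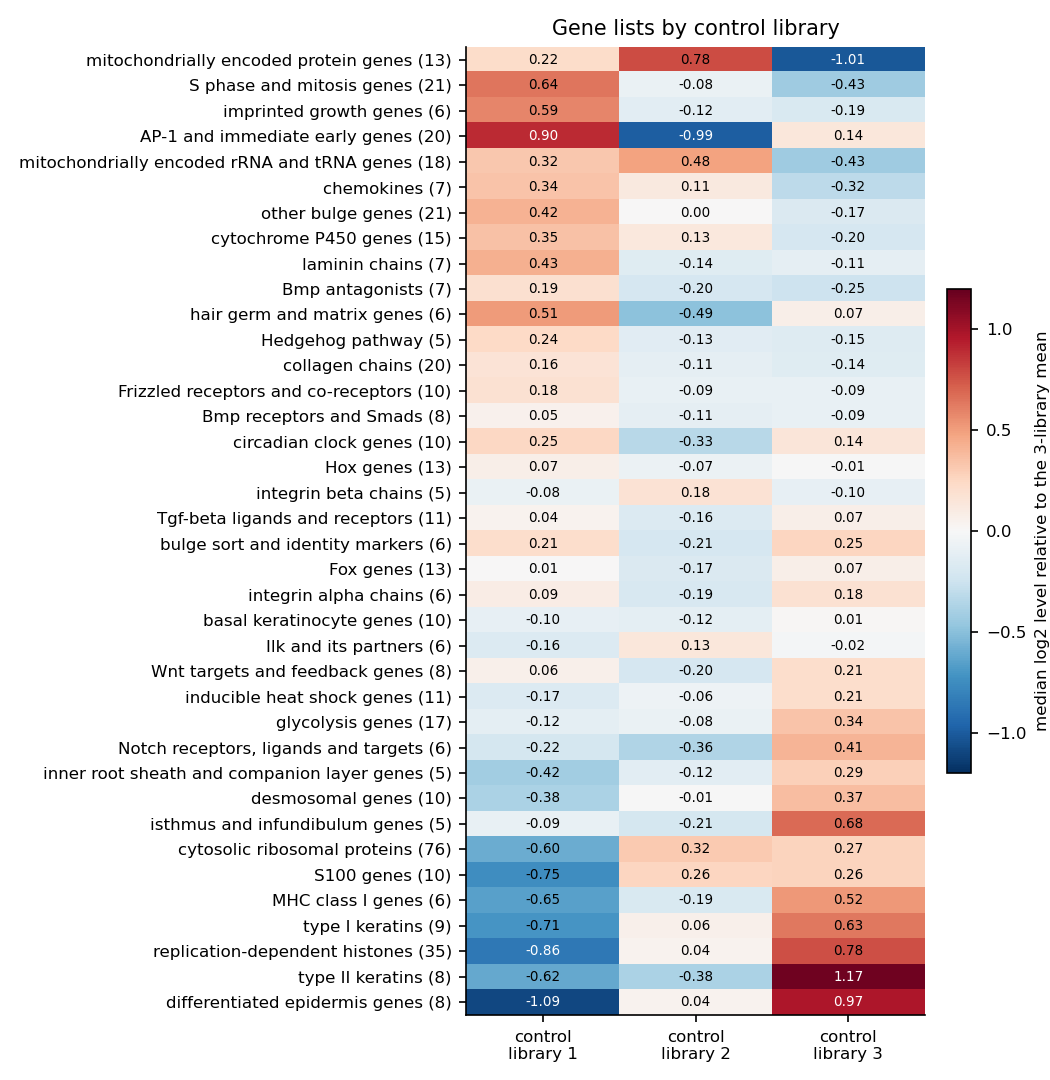
Median log2 level of the detected members of each gene list with at least 5 of them, relative to each gene's mean over the 3 control libraries and to the median of all detected nuclear protein-coding genes. Red is higher and blue lower, the number of members is in parentheses, and lists are sorted by library 1 minus library 3. Mitochondrial, S phase and mitosis and immediate early genes stand at the top, and keratins, histones and differentiated epidermis genes, lowest in library 1, at the bottom.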

How the data were processed

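Bulge SCs were sorted at postnatal day 21, and their RNA was amplified (Ovation V2) and made into libraries with Nextera XT. The labels give polyA RNA as the molecule. Reads were cleared of adapters and ribosomal RNA and aligned by the authors to GRCm38, and the submitters' processing notes name TopHat2 2.0.14, Bowtie2 2.2.4 and DESeq2 1.6.3. The program that counted reads is not given in the sources used here. The first table deposited by the authors holds normalized counts (a signal: reads per gene over a size factor per library). The second, also deposited, holds FPKM, which equals the normalized count times 1 constant per gene. Both hold 1 column per library. Tables of the authors' own genotype comparison (means, fold changes, errors, p-values) were not used.

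All values (100%, tolerance 0.01) were whole multiples of the value of 1 read, 0.965, 1.52 and 0.726 normalized counts in libraries 1 to 3, so reads were recovered. For 74.8% of 31217 genes the FPKM constant matched the annotated exon length within 1%. Symbols, types and coordinates came from GENCODE M21 (GRCm38), which named 42193 of 43274 genes (97.5%). Promoters were from RefSeq.

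Genes were named by rule: the 6 markers, the 30 highest genes, of each of 72 lists the 4 highest members, members at the floor and defining members, and the 10 genes of smallest and of largest CV with a mean FPKM of at least 10. Any other gene was picked with its values in view. A few genes that the rule names are not reported here. The members and lists were chosen with earlier results of these data known. With 1 group there was no test. The counting CV was the square root of the mean sampling variance over the mean. Simulated counts, for genes averaging 30 or more normalized counts, were used to check the removal of counting error from the spread. The reported median CV was not itself checked in this way. Intervals between libraries rest on n = 3, and the CV of counting covers counting error only, since amplified reads are not independent molecules. Python 3.11.15, pandas 2.3.3, numpy 2.4.6, matplotlib 3.10.9, and edgeR 4.0.16 in R 4.3.3 for an alternative scaling (TMM), were used. The detection limit, filters, scaling, pseudocount and each left-out library were varied.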

Additional observations from a re-analysis of the deposited data

How the results depend on the processing

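The number of detected genes, 11191, was 13521 at a limit of FPKM 0.5, 5167 at FPKM 5, 13448 at 10 normalized counts and 10881 after rescaling FPKM to the same sum in each library, and lay between 11859 and 12163 with a library left out. Detected genes on any list, 506 of 2502, came to 569 at FPKM 0.5, 309 at FPKM 5 and 522 to 552 with a library left out. The share of the 100 most abundant genes, on average 76.8% of FPKM, was 45.7% of reads, 68.3% without mitochondrially encoded genes, 33.8% among nuclear protein-coding genes (chosen after seeing the data) and 73.1% to 78.9% with a library left out. The median CV of 0.407 was 0.336 for genes averaging 50 or more normalized counts, 0.731 for all genes above 0, 0.408 with TMM, 0.534 after rescaling to the same sum, and 0.299 to 0.394 with a library left out. The value of 0.299 is without library 1. The lowest correlation, 0.81, was 0.80 by Spearman rank, 0.82 without a filter and 0.85 with a pseudocount of 1. Each marker mean moved by less than 1 SD under rescaling. The cause of these shifts was not tested. By construction, however, a stricter limit passes fewer genes, and leaving out a library cannot lower a count of detected genes. A CV with a library left out rests on fewer values and is not on the same footing as the main value. No paired analysis was possible because only control libraries were used. Depth limits genes of few reads: below a mean of 30 normalized counts counting error alone gives a CV of 0.249.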

Other observations

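Some gene groups outside the account above were also described. Chemokines of the epithelium were abundant, although few members of cytokine families were detected. Ccl27b was at an FPKM of 582, 639 and 281 in libraries 1 to 3, and Cxcl14, which attracts dendritic cell precursors, at 378, 412 and 184. Of 37 chemokines 7 were detected, and of 33 interleukins 1, Il18 (7.62, 9.61 and 6.04). The interleukin count was 3 without library 1, 3 without library 3 and 5 at a limit of FPKM 0.5. Ccl27a, a near copy of Ccl27b, was at 47.4, 81.5 and 52.5, and reads of such copies may be split between them. Of 14 interferon-stimulated genes 2 were detected, among them Isg15 (1.44, 1.65 and 1.08). MHC class I genes were detected in 6 of 8, with H2-D1, a heavy chain, at 10.7, 23.6 and 78.3.

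Of 20 glycolysis genes 17 were detected, headed by Ldha, lactate dehydrogenase A (75.6, 92.3 and 147), and Pgam1 (59.2, 98.6 and 108). Hk2, hexokinase 2, ran the other way, at 51.8, 29.0 and 12.1. Clock genes were detected in 10 of 13. The repressor Nr1d1 was at 20.6, 5.37 and 19.3 and the activator Arntl at 1.43, 7.46 and 3.95, so library 2 was low for the former and high for the latter, and the time of day of collection is not given in the sources used here. Of 12 imprinted growth genes 6 were detected, with Peg3 at 18.5, 8.21 and 9.28, the non-coding H19 at 5.34, 12.4 and 9.63, and Igf2 below the limit at 0.225, 0.300 and 0.364. Cyp1b1 (40.7, 23.6 and 15.0), a target of the aryl hydrocarbon receptor, headed 15 detected cytochrome P450 genes of 93.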
